A study of Mus musculus with 8 samples.

Results

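The miR-23/24/27 clusters are a pair of related miRNA gene clusters, and 5 of their mature miRNAs were described here, mmu-miR-23a and mmu-miR-27a of the a cluster, mmu-miR-23b and mmu-miR-27b of the b cluster, and mmu-miR-24, which both clusters encode. They were chosen by name among the 567 mouse miRNAs of the array. The choice used no rule on their values, but earlier results of these data were known. The array was a 1-colour Agilent mouse miRNA microarray, and 8 of them were hybridised with total RNA of liver. Adult male C57BL/6J mice, 8 weeks old and with no genetic change named, were given CCL4 (carbon tetrachloride, a hepatotoxin that is activated in hepatocytes) in olive oil, or olive oil alone as the control. The agent was injected into the peritoneum at 2 injections a week during the first 4 weeks and at 1 a week after that. The livers were taken at week 4, 6 or 8. From CCL4 mice came 1 array for week 4 and 2 arrays each for weeks 6 and 8, and from olive oil mice 1 array for every week. Because the sources do not say whether an array held RNA of a single mouse or of pooled mice, n counts arrays and the p-values measure the spread between arrays. In whole liver, fewer cells of a type and less miRNA per cell cannot be told apart.

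A miRNA is cut from a hairpin transcript and guides a silencing complex to messenger RNAs, mainly through its seed, bases 2 to 8. In each cluster the 3 hairpins lie close together on the same strand and can be cut from a common transcript, so the mature miRNAs of a cluster are often, but not always, expressed together. miR-27 is known as a regulator of lipid metabolism and of the fat content of hepatic stellate cells, the cells that lay down scar matrix in the liver. The miR-23b cluster has been tied to TGF-beta signalling through Smad messenger RNAs, and miR-24 to the cell cycle.

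The mature sequences show which members share a seed and how near the paralogs are to each other, which limits how well an array can separate them. Each is given 5′ to 3′ from RefSeq (GRCm38.p6) with the seed in capitals, and miR-128, a miRNA of another family, is added because its seed is that of miR-27 shifted by 1 base.
mmu-miR-23a-3p: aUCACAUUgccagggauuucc
mmu-miR-27a-3p: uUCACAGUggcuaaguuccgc
mmu-miR-27b-3p: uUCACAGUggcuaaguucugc
mmu-miR-24-3p: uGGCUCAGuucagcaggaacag
mmu-miR-128-3p: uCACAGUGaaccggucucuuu
The miR-27 paralogs had the same seed and differed by 1 base in all, C19U, counted from the 5′ end with the base of miR-27a first. The seeds of miR-23a and miR-27a differed by U7G, counted in the same way. The reference held no mature sequence of mmu-miR-23b, so how near it is to miR-23a could not be compared here. miR-128 was detected on 1 of the 8 arrays.

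In the same annotation the a cluster (Mir23a, Mir27a and Mir24-2) covered chr8:84208518-84208921, a span of 404 bp that no protein-coding gene of the annotation overlapped. The b cluster (Mir23b, Mir27b and Mir24-1) covered chr13:63300484-63301275, a span of 792 bp inside the bounds of the protein-coding gene Aopep. The array's own annotation was on the older build mm9, where the probes of miR-23a started at chr8:86732465 and those of miR-23b at chr13:63401841. It placed the miR-24 probes at the b cluster, although mature miR-24 is the same from either cluster, and no probe could assign its signal to one of them. Each member had 2 probes of 16 to 18 nt, read at 20 spots per array. Because miR-27a and miR-27b are so near in sequence, and may share probe signal, how far the probes separate them is uncertain and was not tested. The paralogs miR-23a and miR-23b may share probe signal too, and how far their probes separate them was not tested either.

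All 5 members were detected on all 8 arrays. None of their 800 spots was saturated and 34 were marked as outliers by the scanner software, which gave an error of 7.23% to 8.87% of the signal. The other strands of the hairpins were weak or absent where the array held them: miR-24-1* was detected on 1 array, the CCL4 array of 4 weeks, and miR-24-2*, miR-27a* and miR-27b* on 0 arrays. The signals of miR-27a* and miR-27b* were below 0 on every array. miR-23a* and miR-23b* were not on the array. The arrays themselves differed in brightness, with the 75th percentile of the signals between 4.71 and 11.01, and 117 to 158 miRNAs detected. Each signal was therefore divided by the 75th percentile of its array and given on the log2 scale, which is called the level below. Levels of different miRNAs were not ranked against each other, because probes differ in how strongly they bind.

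In CCL4 livers the level of miR-23a was 5.91 at week 4, 5.23 and 5.73 at week 6, and 5.73 and 5.62 at week 8. In olive oil livers it was 5.77, 5.78 and 5.75 for the same weeks in order. The CCL4 arrays lay on both sides of the olive oil arrays, which were close together. The CCL4 level of miR-27a was 6.00 at week 4, 4.96 and 5.32 at week 6, and 5.37 and 5.25 at week 8. In olive oil it was 5.26, 5.29 and 5.12. The CCL4 array of 4 weeks was the highest of the 8 and the first CCL4 array of 6 weeks the lowest, and the other CCL4 arrays lay near the controls.

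In the b cluster no CCL4 array reached the lowest control. For miR-23b the CCL4 levels were 5.36 (week 4), 5.37 and 5.63 (week 6) and 5.55 and 5.63 (week 8). In olive oil it was 5.92, 6.10 and 5.89. miR-27b gave CCL4 levels of 4.34 (week 4), 4.47 and 4.56 (week 6) and 4.57 and 4.71 (week 8). The olive oil levels of miR-27b were 4.76, 5.02 and 4.83. For both miRNAs the groups did not overlap, and the CCL4 array of 4 weeks was the lowest.

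miR-24, which both clusters can supply, had CCL4 levels of 5.89 (week 4), 5.53 and 5.96 (week 6) and 5.97 and 5.99 (week 8). In olive oil its levels were 6.05, 6.10 and 6.01. All CCL4 arrays were below all olive oil arrays, by little except on the first array of 6 weeks. Thus 3 of the 5 members (miR-23b, miR-27b and miR-24) had every CCL4 array below every olive oil array. Of all 133 miRNAs tested, 43.6% did, so this separation was common on these arrays. The same 3 members were below the control of their week on each CCL4 array, as were 51.9% of all tested miRNAs. No member had every CCL4 array above every olive oil array, as 9.02% of the tested miRNAs had.

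**Figure D1:**
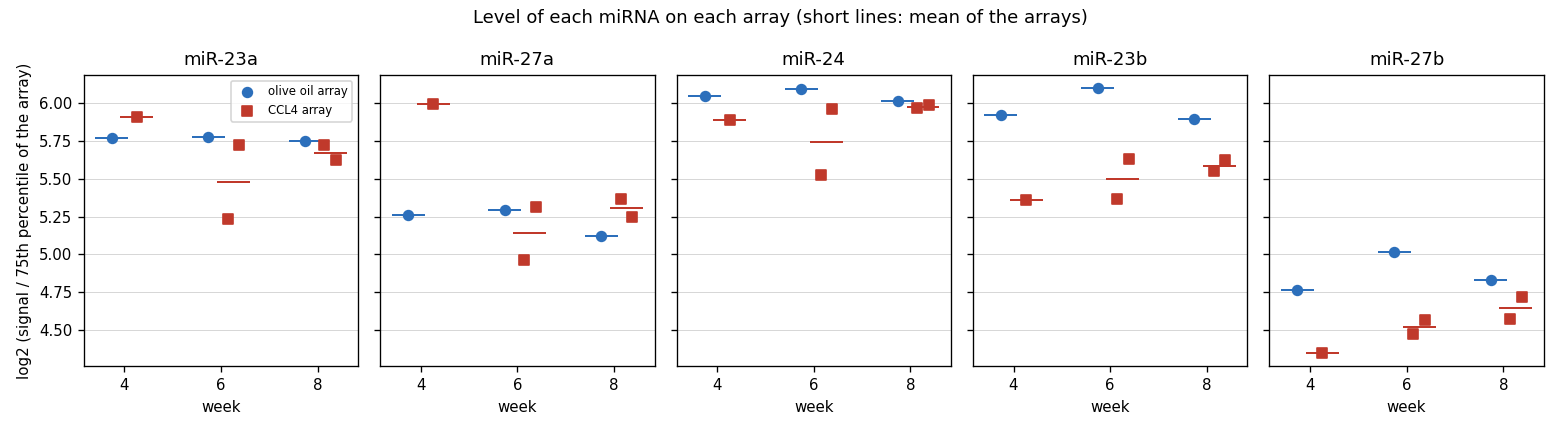
Level of each miRNA (log2 of the signal divided by the 75th percentile of its array) on each array by week, with olive oil arrays as blue circles, CCL4 arrays as red squares and short lines for the mean of the arrays. The CCL4 squares of miR-23b, miR-27b and miR-24 all lie below every olive oil circle, while miR-27a is highest on the CCL4 array of 4 weeks at 6.00.

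The first comparison asked which members differed between CCL4 and olive oil livers over all weeks. miR-23b was lower with CCL4, at 5.51 ± 0.13 (SD, n = 5) against 5.97 ± 0.11 (SD, n = 3). Its log2 fold change was -0.48 (SE 0.15), 0.715-fold, with an adjusted p of 0.0232 (limma with week as a factor, Benjamini-Hochberg over 133 miRNAs), and it was below the control of its week on 5 of 5 CCL4 arrays. It was the only member past the threshold of 0.05: 1 of 5 fell and 0 of 5 rose, where 35.3% of all tested miRNAs fell and 13.5% rose, 48.9% in all. The call of miR-23b was lost without the CCL4 array of 4 weeks (log2 fold change -0.45), the first CCL4 array of 8 weeks (-0.49), or the olive oil array of 4 weeks (-0.45) or of 6 weeks (-0.42).

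The other members did not pass. miR-27b, its neighbour in the cluster, was at 4.53 ± 0.14 (SD, n = 5) with CCL4 and 4.87 ± 0.13 (SD, n = 3) with olive oil, a log2 fold change of -0.36 (SE 0.15) with a limma adjusted p of 0.0585. miR-24 had a log2 fold change of -0.19 (SE 0.16) and an adjusted p of 0.349 by limma. miR-23a had one of -0.10 (SE 0.17; 95% confidence interval -0.47 to 0.27) and an adjusted p of 0.62 by limma. miR-27a was the only member with a value above 0, at 0.21 (SE 0.18; interval -0.19 to 0.62) and a limma adjusted p of 0.349, and 4 of its 5 CCL4 arrays were above the control of their week. That value rested on week 4: with either array of week 4 left out, the log2 fold change of miR-27a was 0.016, and without the olive oil array of 6 weeks it was 0.42, also not called. By the size of the fold change among the 133 miRNAs, the members stood in the order miR-27a (rank 26), miR-23a (44), miR-24 (54), miR-27b (75) and miR-23b (89).

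**Figure D2:**
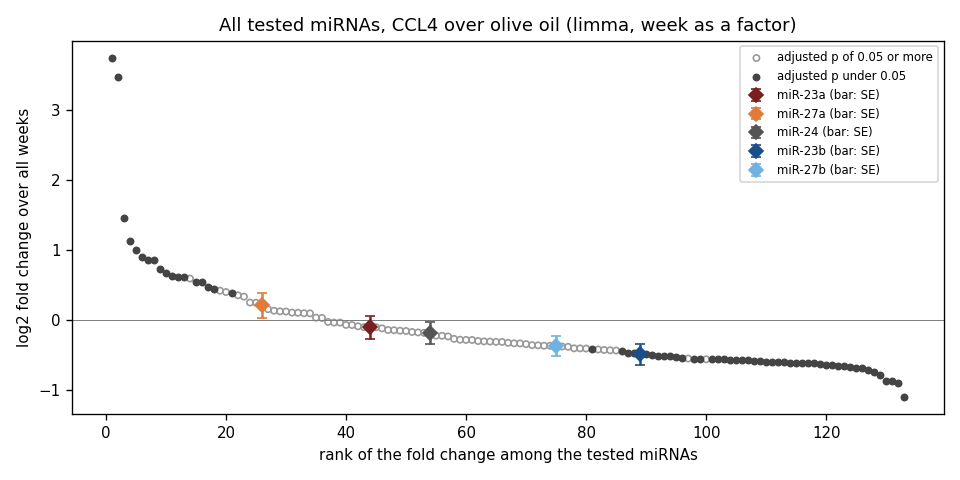
Log2 fold change over all weeks, CCL4 over olive oil, of the 133 tested miRNAs against their rank, with filled points for a limma adjusted p under 0.05 and coloured diamonds with standard errors for the 5 members. The a cluster members and miR-24 lie among the open points, and miR-23b, at rank 89, lies near the start of the filled points of lower miRNAs.

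The sign of these changes depended on how the arrays were put on a common scale. With division by the 75th percentile, the median log2 fold change of the 113 miRNAs detected on all arrays was -0.36, with 18 of the 133 tested higher and 47 lower. With no scaling it was 0.31 (34 higher, 0 lower), with normexp background correction 0.09 (10 higher, 0 lower), with the percentile taken over those 113 miRNAs -0.16 (21 higher, 10 lower), with quantile normalization -0.08 (13 higher, 18 lower) and with cyclic loess -0.07 (22 higher, 19 lower). miR-23b was called lower under 7 of 11 such settings and was above 0 with no scaling (0.19) and with normexp (0.08).

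Distances from that median are the same by construction under 8 of the 11 settings, which shift all miRNAs of an array alike or leave the members' signals as they were. Quantile normalization, cyclic loess and normexp could change them, and with these included miR-27a stood 0.54 to 0.60 above the median on the log2 scale, miR-23a 0.25 to 0.33 above and miR-24 0.17 to 0.28 above. miR-23b stood -0.16 to -0.01 from it, and miR-27b -0.17 to 0.05, with miR-27b the lower of the pair under quantile normalization. No test was run on these distances.

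**Figure D3:**
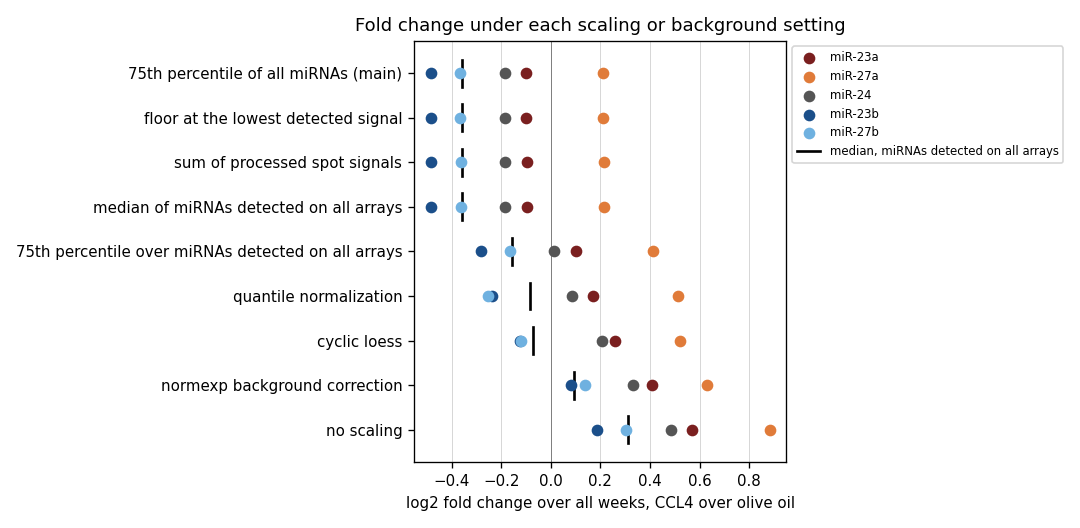
Log2 fold change over all weeks of the 5 members (coloured points) under 9 of the scaling or background settings, with a black line for the median of the 113 miRNAs detected on all arrays. The points and the line move together along the axis, from a median of -0.36 to one of 0.31, and miR-27a stays to the right of the other members.

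A ratio of paralogs on the same array does not depend on the scale of that array, so it was used to compare the a cluster with the b cluster. The ratio of the miR-23a signal to the miR-23b signal with CCL4 was 1.47 at week 4, 0.910 and 1.07 at week 6, and 1.13 and 0.997 at week 8. With olive oil it was 0.901, 0.798 and 0.905. The groups did not overlap, and each of the 5 CCL4 arrays was above the control of its week. On the log2 scale the ratio was 0.14 ± 0.26 (SD, n = 5) against -0.21 ± 0.10 (SD, n = 3), a difference of 0.34 or 1.27-fold. The exact two-sided permutation test over 56 splits gave p = 0.0357, the smallest it can give, and 0.0714 after Benjamini-Hochberg adjustment over the 4 ratios tested.

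The ratio of miR-27a to miR-27b with CCL4 was 3.15 at week 4, 1.41 and 1.69 at week 6, and 1.74 and 1.45 at week 8. In olive oil it was 1.42, 1.21 and 1.22. Again 5 of 5 CCL4 arrays were above the control of their week, although the first array of 6 weeks was just below the olive oil array of 4 weeks, so the groups overlapped. The log2 ratio was 0.85 ± 0.47 (SD, n = 5) against 0.36 ± 0.13 (SD, n = 3), a difference of 0.49 or 1.40-fold. The exact permutation p was 0.0714, also 0.0714 after adjustment. After adjustment neither ratio between the clusters passed 0.05. With so few splits, a ratio could pass only if most of the 4 ratios reached the smallest p together.

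Inside the clusters the changes were smaller. The ratio of miR-23a to miR-27a with CCL4 was 0.826 times that with olive oil, below the control of its week on 5 of 5 arrays and without overlap (exact permutation p = 0.0357, adjusted 0.0714). The ratio of miR-23b to miR-27b was 0.915 times that with olive oil, again below on 5 of 5 arrays but with overlap (exact permutation p = 0.0714, adjusted 0.0714), and under quantile normalization its log2 difference changed from -0.13 to 0.035. By cyclic loess and by normexp, 3 of the 4 ratios reached an adjusted p of 0.0476, those of miR-23a to miR-23b, miR-27a to miR-27b and miR-23a to miR-27a.

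The differences in the ratios between clusters were largest at 4 weeks. Between single arrays at 4 weeks the ratio of miR-27a to miR-27b was 2.22-fold higher with CCL4, while at 6 and 8 weeks it was 1.27-fold and 1.30-fold higher. For miR-23a to miR-23b the values were 1.63-fold, 1.24-fold and 1.17-fold. With both 4-week arrays left out, the log2 differences of the 2 ratios were 0.36 and 0.27, and the exact permutation p was 0.133, the smallest that 4 against 2 arrays can give. When labels were exchanged only within a week, each of the 4 ratios had p = 0.111, the smallest of 18 exchanges (exact permutation).

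**Figure D4:**
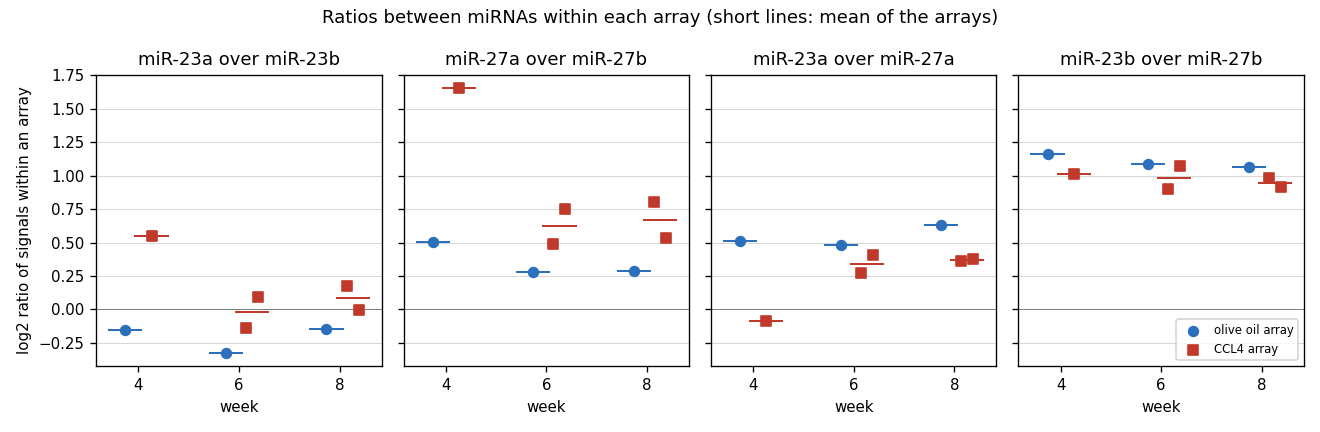
Log2 ratio of the signals of 2 miRNAs on the same array by week, for miR-23a over miR-23b, miR-27a over miR-27b, miR-23a over miR-27a and miR-23b over miR-27b, with olive oil arrays as circles, CCL4 arrays as squares and short lines for means. In the first 2 panels every CCL4 square lies above the olive oil circle of its week, farthest at 4 weeks, where miR-27a over miR-27b is 1.65 against 0.50.

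The weeks were then compared one by one. The error of these values rests on the duplicate CCL4 arrays of weeks 6 and 8, since every other group had 1 array. The fit gave all tested miRNAs the same standard error, 0.33 at 4 weeks and 0.28 at 6 and 8 weeks. It is therefore not the spread of a single miRNA, and within a week the adjusted p follows the size of the fold change alone. At 4 weeks miR-27a was 1.67-fold higher (log2 fold change 0.74, SE 0.33) with a limma adjusted p of 0.0533, just short of the threshold. At 6 and 8 weeks it was 0.898-fold and 1.14-fold (limma adjusted p 0.647 and 0.789). No member passed in any week, in either direction. Of all tested miRNAs, 45.1% passed at 4 weeks (12.0% higher, 33.1% lower), 9.02% at 6 weeks (6.02% higher, 3.01% lower) and 6.77% at 8 weeks (6.02% higher, 0.752% lower).

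miR-23b had folds of 0.678, 0.659 and 0.809 at 4, 6 and 8 weeks, and miR-27b of 0.75, 0.707 and 0.877, all below 1. miR-24 had folds of 0.897, 0.781 and 0.975. miR-23a had 1.1, 0.814 and 0.948, above 1 at 4 weeks alone. The treatment difference was not shown to vary between weeks: the interaction of treatment and week gave limma adjusted p-values of 0.54 for miR-27a and 0.806 to 0.882 for the other members, 0 of 5 called where 6.02% of all tested miRNAs were. The interaction call of miR-27a changed without the second CCL4 array of 6 weeks, where the share of all tested miRNAs called was not counted. Leaving out either CCL4 array of 6 weeks left the 4-week fold changes unchanged. The 4-week standard error of every member fell from 0.33 to 0.23, so calls at that week moved without a change in fold. Without the second of these arrays, the log2 fold changes at 6 weeks were -0.54 (miR-23a), -0.73 (miR-23b), -0.57 (miR-24), -0.33 (miR-27a) and -0.55 (miR-27b). The share of all tested miRNAs called in these fits was not counted, so their calls by week are not given.

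**Figure D5:**
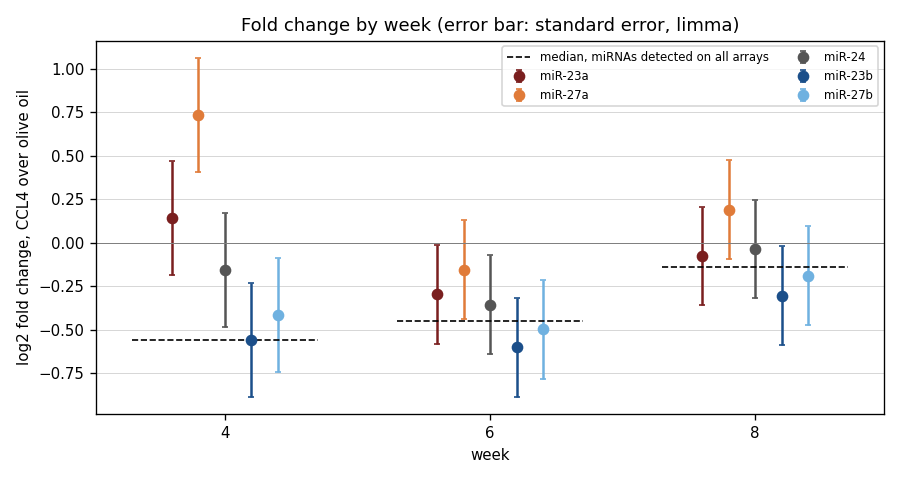
Log2 fold change, CCL4 over olive oil, of each member at 4, 6 and 8 weeks, with dashed lines for the median of the 113 miRNAs detected on all arrays. Error bars are the limma standard error, which within a week is the same for all tested miRNAs. miR-27a is at 0.74 at 4 weeks, and at each week both a cluster members lie above both b cluster members.

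Levels of the b cluster members moved together over the 8 arrays, with a Pearson correlation of 0.95 between miR-23b and miR-27b. It was 0.71 between miR-23a and miR-27a. Between paralogs it was 0.37 for miR-23a and miR-23b and -0.45 for miR-27a and miR-27b. miR-24 had 0.82 with miR-23a, 0.74 with miR-23b, 0.64 with miR-27b and 0.23 with miR-27a. These are descriptions over 8 arrays that share a scale and the difference between treatments.

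Among the 112 other miRNAs detected on all arrays, those with the most similar pattern were named for each member. For miR-23b they were miR-101b, miR-30d and miR-365, each with a correlation of 0.97. For miR-27b they were miR-22 (0.97), miR-30d (0.96) and miR-101b (0.96). Of these, miR-101b (log2 fold change -0.86), miR-365 (-0.71) and miR-22 (-0.68) were lower with CCL4 over all weeks, with limma adjusted p-values of 0.00995, 0.0118 and 0.0135. For miR-24 the nearest were miR-10a (0.94), miR-126-5p (0.92) and miR-19b (0.92). These lists depended on the scale. With levels centred on the median of the miRNAs detected on all arrays, the nearest to miR-23b were miR-30d, miR-98 and miR-331-3p, those to miR-27b were miR-30d, miR-23b and miR-22, and those to miR-24 were miR-7a, miR-19b and miR-10a, while miR-23a and miR-27a had the same 3 as before.

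For miR-23a the nearest were miR-500 (0.95), miR-652 (0.95) and miR-21 (0.92), none of which differed over all weeks by limma (adjusted p 0.539, 0.596 and 0.635). For miR-27a they were miR-223 (0.96), a miRNA of myeloid cells, miR-1224 (0.94) and miR-143 (0.93), known from smooth muscle and other mesenchymal cells. Like miR-27a, these were at their highest on the CCL4 array of 4 weeks, where miR-223 was at 5.41, against 3.95 to 4.26 in olive oil. Without that array the correlations with miR-27a were 0.73, 0.79 and 0.84, and when levels were instead centred on the median of the miRNAs detected on all arrays, they were 0.31 for miR-223, 0.32 for miR-1224 and 0.34 for miR-143 without it.

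Markers of liver cell types gave the setting of these values. Over all weeks, 13.5% of all tested miRNAs were higher with CCL4 and 35.3% lower by limma, which the counts below are to be read against. The 5 hepatocyte miRNAs had a summed scaled signal of 2421 to 4283 with CCL4 and 5440 to 6076 with olive oil, and by limma 4 were lower and 1, miR-802, was higher (median log2 fold change -0.60). Such sums mostly follow the brightest miRNAs of a list. Before scaling, miR-122 had signals of 18497 to 35101, and the next hepatocyte miRNA, miR-192, 2168 to 4622. Among the leukocyte miRNAs the brightest were miR-142-3p (185 to 827) and miR-223 (72.9 to 403). Of the 6 mesenchymal and stellate miRNAs 5 were tested and 4 were higher (median 0.74), with sums of 30.6 to 50.3 against 22.4 to 29.4, while miR-145 was detected on 0 arrays. Of the 6 leukocyte miRNAs 4 were tested and 1 was lower (median -0.07), with sums of 50.4 to 144.8 against 72.2 to 107.0. The highest of these sums, 144.8, was that of the CCL4 array of 4 weeks, on which miR-27a was also highest, and miR-150 was detected on 0 arrays. The 3 tested endothelial miRNAs of 4 (median -0.28) and the 3 erythroid ones (median -0.55) held none that passed over all weeks. The endothelial sums were 141.7 to 212 with CCL4 against 218 to 231.3 with olive oil, without overlap. The erythroid sums were 377.9 to 960.6 against 537 to 1225. At 4 weeks alone the 3 erythroid miRNAs were lower, at 0.391-fold (miR-451), 0.371-fold (miR-144) and 0.403-fold (miR-486), with limma adjusted p-values of 0.000501, 0.00024 and 0.000767, and the leukocyte miR-223 was 2.21-fold higher, with one of 0.00335. The other tested leukocyte miRNAs went both ways at 4 weeks, at 1.28-fold (miR-142-3p), 0.918-fold (miR-142-5p) and 0.542-fold (miR-146a). Over all weeks the median of the 113 miRNAs detected on all arrays was -0.36. The part of these cell types in the values of the members was not tested.

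Of 16 miRNAs known from hepatic stellate cells and liver fibrosis, 14 were tested, 4 rose and 7 fell (median log2 fold change -0.25), so that 3 did not pass. Of all tested miRNAs 13.5% rose and 35.3% fell, 48.9% in all. miR-34a, a target of p53, was higher at 1.13 (SE 0.14), with a limma adjusted p of 0.000524. miR-29c, whose family represses collagen messenger RNAs, was lower at -0.89 (SE 0.21), with a limma adjusted p of 0.0135. The change of miR-23b, -0.48, was smaller than either.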

How the data were processed

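Total RNA of mouse liver was labelled with Cy3 and hybridised to 8 Agilent mouse miRNA arrays, all on 1 slide and scanned on 1 day. The deposited scanner files hold, for each array, the total gene signal, an intensity that the authors' Feature Extraction software (version 10.5.1.1 per the file headers) summed over background-subtracted spots, with a detection flag. The deposited value table holds log2 of the same signal, with signals under 1 set to 1, and served as an alternative. Signals were scaled array by array to the 75th percentile over 567 mouse miRNAs, as in the methods of the study, scaled values under 0.01 were raised to 0.01, and the result was put on the log2 scale. In the methods the floor came first and the scaling second, an order tried here as an alternative. miRNAs detected on at least 3 of 8 arrays (133) were tested with limma 3.58.1 in R 4.3.3, with week as a factor (4 residual degrees of freedom), or with a mean per group for each week and for the interaction (2 residual degrees of freedom). P-values were adjusted by Benjamini-Hochberg with a threshold of 0.05. Within-array log2 ratios were compared by exact two-sided permutation tests (scipy 1.17.1), adjusted over 4 ratios, and a ratio was called by its adjusted p. The fits were tested on simulated data. Groups came from the sample titles. The members, the marker lists and the miRNAs of liver fibrosis were chosen with earlier results of these data known. Named miRNAs were the members, the other strands of their hairpins where the array held them, and miRNAs with a shared or shifted seed. The marker and fibrosis lists and the 3 miRNAs most correlated with each member were also named. From those lists, miR-802, miR-145, miR-150, miR-34a and miR-29c were picked out after their values were seen. The precision is limited by the number of arrays. Other scalings, background corrections, filters, probes, left-out arrays and a replicate block were tried as alternatives.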

Additional observations from a re-analysis of the deposited data

Results flagged for a closer look

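Each of the 5 member levels and 4 ratios was examined for a CCL4 array far from the other 4, as the gap to its nearest neighbour divided by the range of the 5 arrays, against Dixon's critical value of 0.710. About 1 in 20 such groups passes by chance. The ratio of miR-27a to miR-27b gave 0.734, with the array of 4 weeks high. The ratio of miR-23a to miR-27a gave 0.718, with the array of 4 weeks low. The level of miR-24 gave 0.792, with the first array of 6 weeks low. The 5 arrays came from 3 weeks, and the array of 4 weeks was the only one of its group.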

How the results depend on the processing

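Values are log2 fold changes of CCL4 over olive oil, called at an adjusted p of 0.05. Of the values that changed sign, that of miR-23b over all weeks was the only one called at the main setting. With no scaling the log2 fold changes that turned above 0 were miR-23a 0.57 (all weeks), 0.28 (6 weeks), 0.52 (8 weeks), miR-23b 0.19 (all weeks), 0.33 (4 weeks), 0.29 (8 weeks), miR-24 0.48 (all weeks), 0.74 (4 weeks), 0.22 (6 weeks), 0.56 (8 weeks), miR-27a 0.42 (6 weeks) and miR-27b 0.31 (all weeks), 0.48 (4 weeks), 0.077 (6 weeks), 0.40 (8 weeks). With normexp background correction the log2 fold changes that turned above 0 were miR-23a 0.41 (all weeks), 0.18 (6 weeks), 0.35 (8 weeks), miR-23b 0.082 (all weeks), 0.17 (4 weeks), 0.15 (8 weeks), miR-24 0.33 (all weeks), 0.53 (4 weeks), 0.13 (6 weeks), 0.38 (8 weeks), miR-27a 0.28 (6 weeks) and miR-27b 0.14 (all weeks), 0.25 (4 weeks), 0.21 (8 weeks). With cyclic loess the log2 fold changes that turned above 0 were miR-23a 0.26 (all weeks), 0.14 (6 weeks), 0.034 (8 weeks), miR-23b 0.023 (4 weeks), miR-24 0.21 (all weeks), 0.48 (4 weeks), 0.11 (6 weeks), 0.10 (8 weeks) and miR-27a 0.24 (6 weeks). With quantile normalization the log2 fold changes that turned above 0 were miR-23a 0.17 (all weeks), 0.062 (6 weeks), 0.034 (8 weeks), miR-24 0.086 (all weeks), 0.21 (4 weeks), 0.10 (6 weeks) and miR-27a 0.23 (6 weeks). With the percentile of the consistently detected miRNAs as the scale the log2 fold changes that turned above 0 were miR-23a 0.10 (all weeks), 0.16 (6 weeks), miR-24 0.014 (all weeks), 0.064 (4 weeks), 0.10 (6 weeks) and miR-27a 0.31 (6 weeks). With 1 array left out, miR-27a at 6 weeks ranged from -0.33 to 0.021 (above 0 without the first CCL4 array of that week), and miR-23a over all weeks from -0.19 to 0.016 (above 0 without the olive oil array of 6 weeks). Over the 29 alternatives miR-27a stayed above 0 (0.016 to 0.88), and miR-23b was below 0 in 27 and called in 19. Those 19 include the methods' t-test without adjustment, and some of the alternatives gave the same values as others.

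Over all weeks the number of members called lower was 1 at the main setting. It was 0 with that percentile, cyclic loess, no scaling, normexp, no filter on detection, or both 4-week arrays left out. With the median as the scale it was 2, where 69 of the 133 tested miRNAs were lower. With the sum of processed spot signals it was also 2, where 50 of the 133 were lower. The methods' t-test without adjustment gave 2 as well, and leaving out 1 array in turn gave 0 to 1. For the t-test, the detection filter and the left-out arrays, the share of all tested miRNAs was not counted. The number called higher was 1 with no scaling, where 34 of the 133 tested miRNAs were higher. At 4 weeks the number called higher, 0 at the main setting, was 3 with cyclic loess and 2 with quantile normalization. It was 1 with that percentile, the median as the scale, no scaling or the floor at the lowest detected signal. Detection on at least 6 arrays and an intensity trend also gave 1. The number called lower with the median as the scale was 1 for week 4, 3 for week 6 and 1 for week 8. Under these settings the share of all tested miRNAs called by week was not counted. The counts by week therefore do not set the members apart from the other miRNAs. With 1 array left out, calls at 4 and 6 weeks changed, and the share of all tested miRNAs called was not counted. The interaction call of miR-27a changed with 1 array left out, where that share was not counted either. The slide row as a covariate and the removal of both 4-week arrays were chosen after the data were seen. The second CCL4 array of 6 weeks was the only one in another row than the rest of its week, so the covariate gave the same values as leaving that array out and tested no effect of the row. Leaving out either array of 4 weeks, or both, likewise gave 1 and the same fold change.

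For the ratios, cyclic loess gave 0.34 (miR-23a to miR-23b), 0.54 (miR-27a to miR-27b) and -0.23 (miR-23a to miR-27a), and normexp 0.29, 0.42 and -0.19, each with an exact permutation p of 0.0357, adjusted 0.0476. Quantile normalization gave 0.035 for miR-23b to miR-27b. With 1 array left out the 4 ratios ranged from 0.24 to 0.41, 0.29 to 0.58, -0.31 to -0.19 and -0.15 to -0.10, where the design could not reach 0.05. Beyond the settings named here, the cause of a changed call was not tested.

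The replicate number as a block left miR-23b at -0.55 (limma adjusted p 0.0232) and changed no call. The numbers share no source named in the labels, and the deviations of the CCL4 pairs of 6 and 8 weeks had a correlation of 0.0508 over 133 miRNAs.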
